A study of Mus musculus with 8 samples.

Results

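A set of 30 genes was followed through the cell types of the embryonic mouse kidney, 15 enzymes of glycolysis and 15 genes known for their response to low oxygen, out of 32285 genes counted. They were selected by symbol, and each symbol was present in the features. The kidneys came from 2 *Trim28*Δ/Δ mice, in which a cre recombinase under the *Six2* promoter (Six2-cre) had deleted floxed *Trim28* in nephron progenitors, and from 2 *Trim28*f/f control mice. All 4 embryos were male, and their stage is E17.5 by the sample labels and E18.5 by the study's methods. Six2-cre acts in the lineage that forms podocytes and tubules up to the distal tubule, and stroma, endothelium, immune cells and the ureteric tree lie outside it. Cells of each mouse carried a cell multiplexing oligonucleotide (CMO), a DNA tag bound to the cell membrane, before all were pooled into a single 10x 3′ library. CMO305 marked mouse 1 and CMO308 mouse 2 (both *Trim28*Δ/Δ), CMO306 mouse 3 and CMO307 mouse 4 (both *Trim28*f/f). Each tag stands for 1 mouse, so that the spread between values is that between mice of a single pool. Bulk RNA of newborn kidneys (6 samples) was not analysed here.

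After assignment by tag, mice 1 to 4 held 1423, 1548, 2134 and 1762 cells, with a median of 16474 to 17098.5 unique molecular identifiers (UMIs, counted RNA molecules) per cell. The cells formed 24 clusters, and 19 classes had at least 10 cells in every mouse. A class is called PT-like (proximal tubule), LOH-like (loop of Henle), DT-like (distal tubule), NPC-like (nephron progenitor), ErPT-like (early proximal tubule), UB-like (ureteric bud), CD-like (collecting duct) and so on where fixed markers named it, and otherwise by its number and leading genes. Defining markers of kidney cells were among the leading genes, such as *Six2* and *Cited1* in NPC-like, *Slc12a1* and *Umod* in LOH-like, *Slc12a3* in DT-like, *Nphs1* in podocyte-like and *Aqp2* in CD-like cells. The members were left out of the genes used for clustering. Levels are UMIs summed per class and mouse and given as CPM, counts scaled to the library total that edgeR's TMM method sets. CPM values of different members are not set against each other here. RNA free in the suspension made up 3.29% (intercalated-like) to 14.1% (immune-like) of the UMIs of a class.

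Mouse 3 stood apart from the other mice in measures outside these genes. Its median mitochondrial share was 2.87%, against 3.51% to 4.08% in the other mice. It gave 104 of the 900 PT-like and 291 of the 655 ErPT-like cells. The CD-like class joined cluster 10 (*Aqp2*, *Fxyd4*), with 0 cells of mouse 3, and cluster 15 (*Elf3*, *Rnf186*), with 161 of its 164 cells from mouse 3, so that CD-like values set 1 cluster against another. *Trim28* itself lay between 18.99 and 42.6 CPM in mice 1 and 2 and between 58.3 and 172 CPM in mice 3 and 4 over the NPC-, ErPT-, PT-, LOH-, DT- and podocyte-like classes. In stroma-like cells, outside that lineage, it had 108, 105, 88.7 and 123 CPM in mice 1 to 4. Its counted 3′ end lies outside the floxed segment, so these counts do not read the deletion itself. The paper states that the frameshift left by the deletion leads to decay of the RNA, which was not tested here.

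Glycolysis splits glucose into pyruvate in the cytosol, and lactate dehydrogenase (*Ldha*) turns pyruvate into lactate when oxygen is scarce. The adult proximal tubule is known for making glucose and burning fatty acids, whereas distal segments and the medulla rely more on glycolysis. When oxygen falls, prolyl hydroxylases such as *Egln1* and *Egln3* stop marking the HIF alpha subunits for destruction, and HIF binds a short DNA motif, the hypoxia response element, in its target genes. Most glycolysis enzymes, the glucose transporter *Slc2a1*, the angiogenic factor *Vegfa* and the hydroxylase *Egln3* itself are known targets.

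In mice 1, 2 and 4, most glycolysis enzymes were highest in distal cells, 13 of 15 in DT-, LOH-, CD- or intercalated-like cells, and 11 were lowest in erythroid-like cells. TMM was run within each class, so classes were not scaled to each other and a level is a share of the RNA counted in its class. Erythroid-like cells were led by globin genes such as *Hbb-bt* and *Hba-a1*, and the part of these in the low shares there was not tested. The plot of levels by class shows each gene. Levels are given as mean ± SD over these 3 mice, which hold both genotypes. For only 5 of the 15 enzymes did the first class stand above the second by more than the SDs of both. *Hk1*, the hexokinase of most tissues, reached 141 ± 15.9 CPM in DT-like, 107 ± 8.46 CPM in LOH-like and 5.11 ± 1.45 CPM in PT-like cells. Its DT-like level lay above the next class by more than the SDs of both. *Hk2*, the inducible hexokinase, was highest in immune-like cells, at 91.4 ± 16.6 CPM, and lay at 8.16 ± 0.412 CPM in PT-like cells. Its immune-like level did not differ beyond the SDs from that of intercalated-like cells, at 43.7 ± 51.8 CPM. *Pkm*, the pyruvate kinase of most tissues other than liver, was also lowest in PT-like cells, at 89.1 ± 15.2 CPM, against 546 ± 34.7 CPM in CD-like cells.

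Other enzymes were not low in PT-like cells. *Pgam1* (phosphoglycerate mutase) was highest there, at 689 ± 5.97 CPM, above the 521 ± 85.2 CPM of intercalated-like cells by more than the SDs of both. *Gapdh* reached 1908 ± 172 CPM in DT-like and 1862 ± 87.8 CPM in PT-like cells, and *Tpi1* (triosephosphate isomerase) had 846 ± 79.3 and 788 ± 23.1 CPM. For neither gene did these classes differ beyond their SDs. *Aldoa* (aldolase) ranged from 265 ± 61.5 CPM in erythroid-like to 1506 ± 300.1 CPM in intercalated-like cells, and *Ldha* from 184 ± 38.2 CPM in erythroid-like to 1039.6 ± 221 CPM in intercalated-like cells. *Gpi1* (glucose-6-phosphate isomerase) was level between LOH-like (529 ± 16.8 CPM) and DT-like cells (528 ± 30.5 CPM). So was *Eno1* (enolase) between DT-like (476 ± 75.9 CPM) and intercalated-like cells (476 ± 46.4 CPM). *Pgk1* (phosphoglycerate kinase) was highest in DT-like cells, at 724 ± 53.3 CPM.

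The phosphofructokinase genes, which encode the committed step, had different patterns. *Pfkl*, the liver form, was highest in CD-like cells at 143 ± 10.9 CPM and *Pfkp*, the platelet form, in DT-like cells at 118 ± 11.8 CPM. *Pfkm*, the muscle form, stayed at 3.58 to 30.3 CPM over all classes. *Aldoc*, the brain aldolase, reached no more than 20.2 ± 4.59 CPM, in CD-like cells.

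The 15 hypoxia response genes had their highest levels in 9 different classes, of which immune-like cells only through the barely counted *Car9*. For 8 of the genes, *Car9* included, the first class stood above the second by more than the SDs of both. *Vegfa* was a podocyte gene, at 628 ± 129 CPM, and the next class was cluster 6 (*Pcp4*, *Lsp1*) at 115 ± 5.57 CPM. *Adm*, which encodes the vasodilator peptide adrenomedullin, was also highest in podocyte-like cells, at 83.7 ± 9.95 CPM, followed by endothelium-like cells at 27.6 ± 6.43 CPM. *Egln3* was highest in endothelium-like cells (79.4 ± 8.53 CPM) and lay at 4.86 ± 0.985 CPM in PT-like cells. In each of these cases the first class stood above the second by more than the SDs of both.

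*Ndrg1*, a stress-responsive gene of epithelia, was highest in PT-like cells at 244 ± 18.998 CPM, and *P4ha1*, a collagen prolyl hydroxylase, in stroma-like cells at 130.1 ± 21.6 CPM. *Higd1a*, a mitochondrial inner membrane protein, reached 368 ± 40.9 CPM in DT-like cells, and *Slc2a1*, the basal glucose transporter, 124 ± 22.8 CPM in intercalated-like and 119 ± 26.0 CPM in LOH-like cells. *Bnip3*, a mitophagy receptor, was at 174 ± 1.18 CPM in PT-like and 162 ± 33.0 CPM in intercalated-like cells. *Ddit4*, an inhibitor of mTORC1, and *Ankrd37*, an ankyrin repeat protein, were highest in endothelium-like cells, at 68.7 ± 9.48 and 72.9 ± 12.7 CPM. *Slc2a1*, *Bnip3* and *Ankrd37* did not differ beyond their SDs between their first and second class. *Kdm3a* is a histone demethylase, *Pdk1* inhibits pyruvate dehydrogenase and *Ero1l* is a disulphide oxidase of the endoplasmic reticulum. These genes and *Egln1* varied 4.22- to 6.44-fold between their highest and lowest class.

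*Car9*, the cell surface carbonic anhydrase often used as a hypoxia marker, was barely counted. It had 42 UMIs in all 19 classes, 7, 7, 20 and 8 in mice 1 to 4, and passed the expression filter in no class. It was the only member so. Immune-like cells had 3.64, 4.39, 4.96 and 3.97 CPM in mice 1 to 4, with 2, 3, 4 and 2 UMIs, too few to tell the mice apart.

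**Figure D1:**
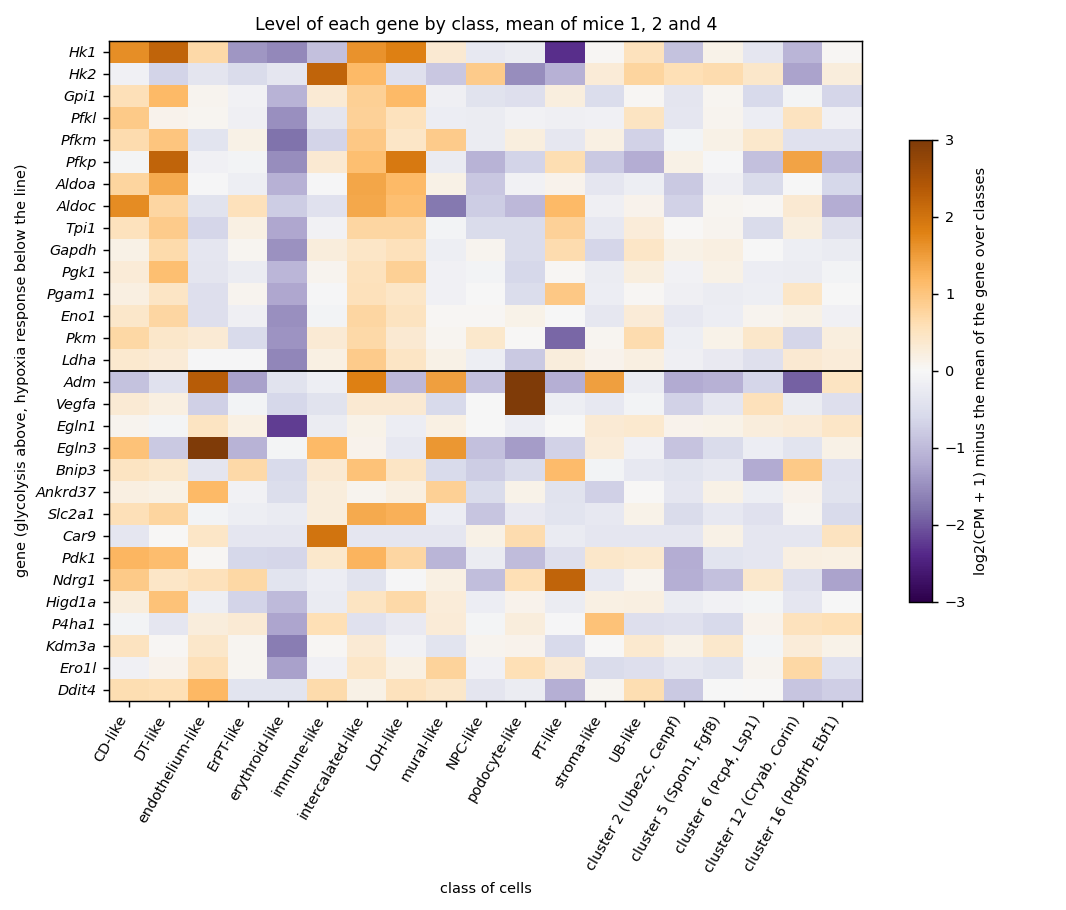
Level of the 30 genes (rows) in 19 classes of cells (columns), as log2(CPM + 1) of the mean of mice 1, 2 and 4 minus the mean of that gene over classes. Orange is above and purple below the gene's own mean, with *Hk1* and *Pkm* low in PT-like cells and *Vegfa* and *Adm* high in podocyte-like cells.

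Mouse 3 had higher levels of nearly all members than each other mouse, mouse 4 of the same genotype included. A member was tested in 498 of 570 pairs of member and class, where it passed the expression filter, and 29 members passed in at least 1 class. Mouse 3 had the highest of the 4 values in 492 of these pairs and was at least 1.5-fold above each other mouse (1 CPM added) in 417, or 83.7%. Over all pairs of gene and class, mouse 3 was highest in 52323 of 167949 and was at least 1.5-fold above each other mouse in 4.46%. The same count for the members was 1 in mouse 1, 0 in mouse 2 and 0 in mouse 4, where all pairs gave 1.31%, 1.08% and 1.03%. Earlier results of these data were known when the genes were chosen, so the shares are a description and have no test.

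The 2 groups of members overlapped in the size of the ratio, and the difference between them was not tested. The median log2 ratio of mouse 3 over mouse 4, over members and classes, was 1.58 for the hypoxia response genes and 0.97 for the enzymes. Per class the median of the former lay between 0.86 (immune-like) and 2.89 (CD-like), and that of the latter between 0.57 (mural-like) and 1.45 (cluster 6, *Pcp4*, *Lsp1*). By contrast, mouse 4 lay between 0.865 and 1.28 times the mean of mice 1 and 2 in the median over classes, for every member.

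**Figure D2:**
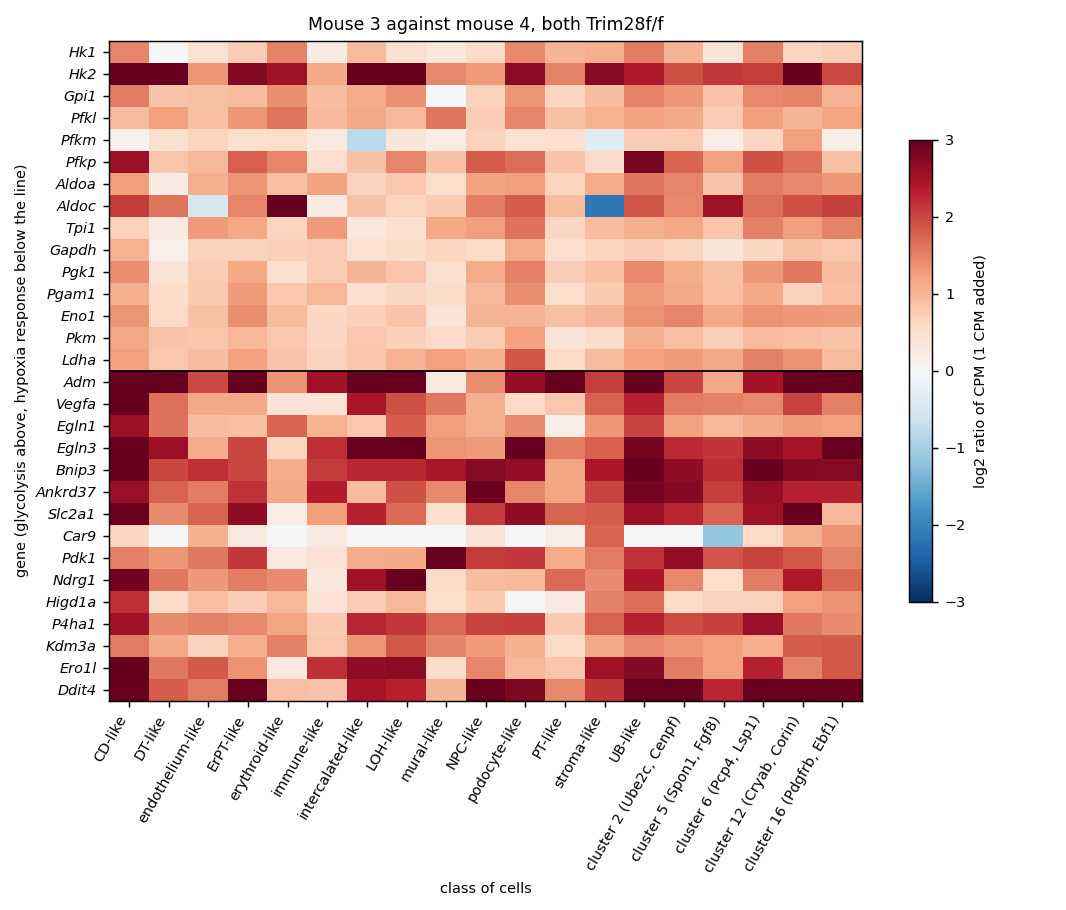
Log2 ratio of CPM (1 CPM added) of mouse 3 over mouse 4, both *Trim28*f/f, for 30 genes (rows) and 19 classes (columns). Red is higher in mouse 3, and the palest cells belong mainly to *Car9*, which has 42 UMIs in all.

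Among the enzymes, *Ldha* in ErPT-like cells had 528, 572, 1259 and 535 CPM in mice 1 to 4, and in stroma-like cells 542, 594, 1279 and 659 CPM. *Aldoa* had 329, 299, 791 and 345 CPM in NPC-like and 578, 559, 1154 and 544 CPM in endothelium-like cells. In both genes and in all 4 of these classes mouse 3 stood alone, and mouse 4 lay nearer to mice 1 and 2 than to mouse 3. *Tpi1* had 333, 273, 957 and 310.2 CPM in podocyte-like cells, *Pgam1* 323, 401, 876 and 359 CPM in UB-like cells and *Gapdh* 1455, 1469, 2281 and 1339 CPM in immune-like cells. *Gapdh* moved least of the abundant enzymes, with mouse 3 at a median of 1.54 times the mean of the other mice, against 2.14 for *Ldha*, 2.26 for *Aldoa*, 2.06 for *Tpi1* and 1.95 for *Pgam1*.

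The hexokinases differed from one another. *Hk2*, singled out after its values were seen, had 8.78, 10.9, 125 and 17.7 CPM in ErPT-like cells and 8.79, 12.8, 180.3 and 18.7 CPM in LOH-like cells, a median of 6.11 times the other mice over classes. *Hk1* stood at a median of 1.71 times, and in DT-like cells, its highest class, it had 129, 135, 159.5 and 159 CPM, where mouse 4 reached the level of mouse 3. Of the phosphofructokinases, *Pfkl* and *Pfkp* stood at 2.15 and 2.75 times the other mice and *Pfkm* at 1.22 times. The 6 pairs in which mouse 3 was not highest were *Pfkm* in 4 classes, *Pfkp* in stroma-like cells and *Hk1* in podocyte-like cells. *Gpi1*, *Pgk1*, *Eno1*, *Pkm* and *Aldoc* were at 2.09, 1.98, 2.13, 1.77 and 2.77 times.

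**Figure D3:**
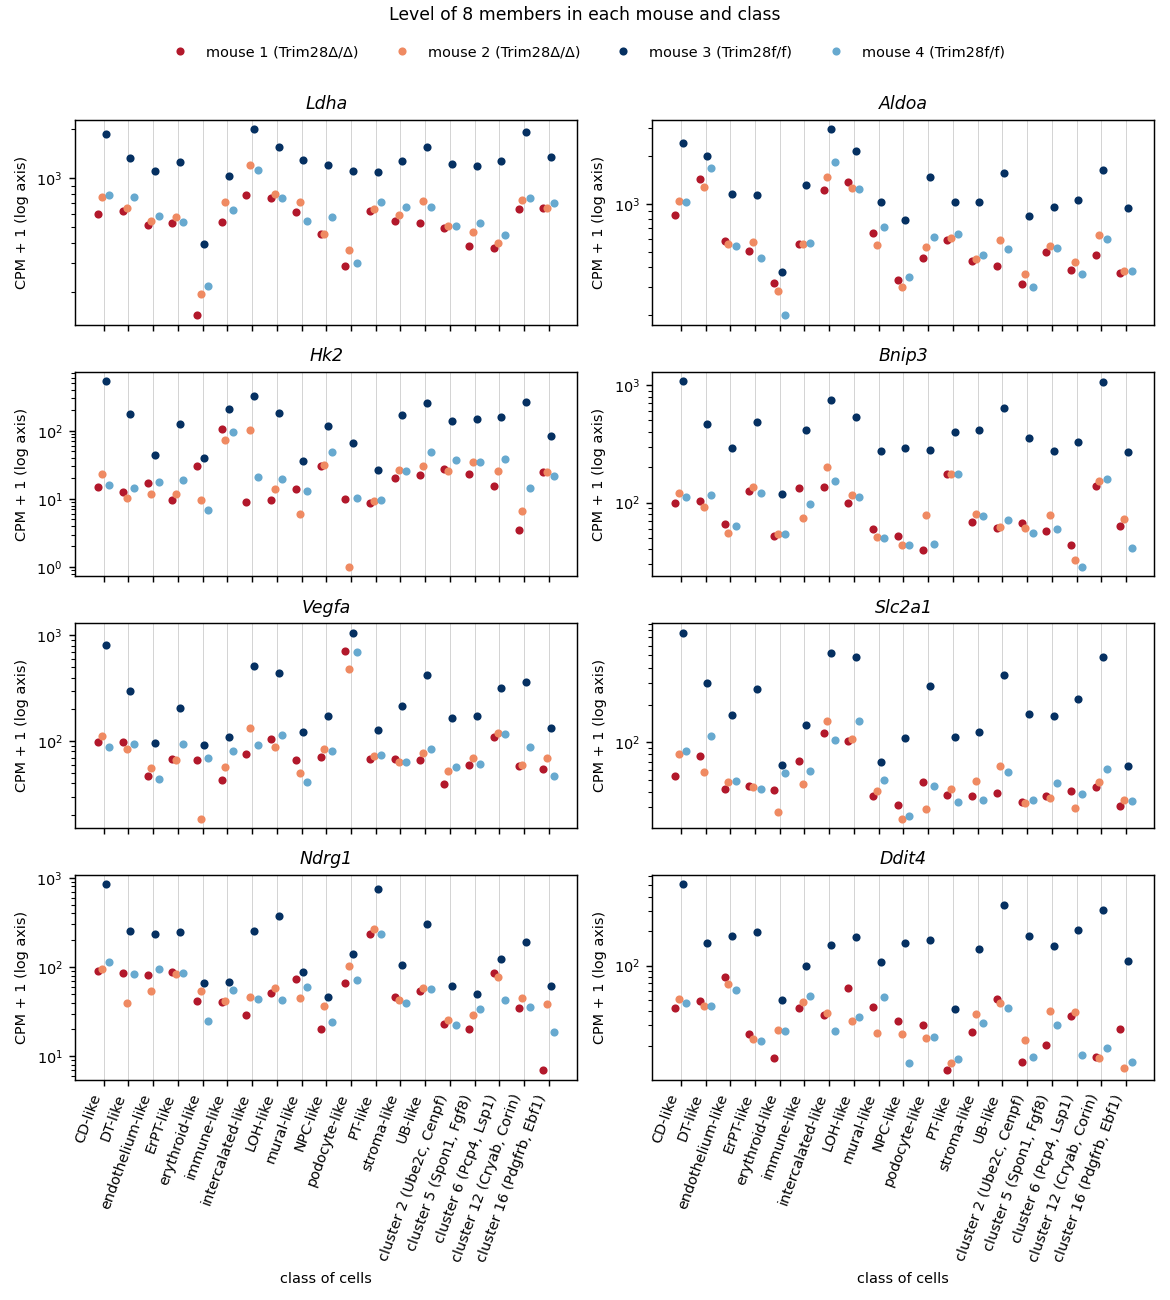
CPM + 1 (log axis) of 8 genes in each of 19 classes, 1 point per mouse, with the *Trim28*Δ/Δ mice in red and orange and the *Trim28*f/f mice in dark (mouse 3) and light (mouse 4) blue. The dark blue point is the highest in every class for all 8 genes. The spread of the other points differs between genes and classes, in large classes as well, such as for *Hk2* in LOH-like cells.

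The hypoxia response genes ranged widely, with medians over all classes from 1.19 (*Car9*) and 1.70 times the other mice (*Higd1a*, the most abundant of them, below most enzymes) to 6.52 times (*Adm*). *Bnip3* had 50.9, 42.9, 289 and 42.5 CPM in mice 1 to 4 in NPC-like cells, 97.5, 116, 531 and 110.3 CPM in LOH-like cells and 176, 174, 397 and 173 CPM in PT-like cells. Mouse 3 was at least 1.5-fold above each other mouse in all 19 classes, with a median of 4.89 times their mean. *Ddit4* had 24.3, 21.8, 193 and 20.9 CPM in ErPT-like and 25.2, 36.9, 138 and 30.5 CPM in stroma-like cells, and *P4ha1* 115, 155, 413 and 120.2 CPM in stroma-like cells. These gave medians over classes of 4.93 and 3.62 times.

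The glucose transporter and the angiogenic factor were highest in the same mouse. *Slc2a1* had 102, 106, 484 and 149 CPM in LOH-like and 41.1, 47.0, 164 and 48.1 CPM in endothelium-like cells. *Vegfa* had 103, 86.3, 437 and 113 CPM in LOH-like cells, so that mouse 3 reached there 4.29 times the mean of the other mice. In podocyte-like cells, where *Vegfa* was high in every mouse, it had 705, 479.7, 1063 and 701 CPM, a ratio of 1.69. *Ndrg1* had 234, 266, 751 and 231 CPM in PT-like and 19.4, 35.4, 44.9 and 23.1 CPM in NPC-like cells, and *Egln1* 66.0, 83.4, 313 and 75.9 CPM in UB-like and 51.6, 55.4, 79.2 and 67.6 CPM in PT-like cells. *Higd1a* had 169, 222, 593 and 207 CPM in stroma-like and 162, 195, 215 and 211 CPM in podocyte-like cells, with mouse 3 at 1.13 times the mean of the other mice.

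Members of lower level rest on fewer UMIs. *Adm* passed the filter in only 5 of the 19 classes that its median runs over. In these 5 mouse 3 was 4.90 to 10.2 times the mean of the other mice, and in podocyte-like cells it had 91.4, 72.5, 552 and 87.3 CPM. *Ankrd37* and *Egln3* stood at 4.60 and 4.68 times the other mice, *Pdk1* and *Ero1l* at 3.14 and 3.12 times and *Kdm3a* at 2.38 times. *Car9* passed the filter in no class. The values of *Adm* in each mouse were chosen after they were seen.

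Counted by gene, mouse 3 was at least 1.5-fold above each other mouse in every class tested for *Hk2* (16 of 16), *Pfkl* (18 of 18), *Aldoc* (10 of 10), *Egln3* (13 of 13), *Ankrd37* (18 of 18), *P4ha1* (19 of 19) and *Ddit4* (18 of 18), beside *Bnip3* and *Adm*. The count was lowest for *Pfkm* (2 of 13), *Hk1* (8 of 18) and *Gapdh* (9 of 19). *Ndrg1* and *Higd1a* reached it in 12 of 19 and 12 of 19 classes, though mouse 3 was the highest mouse in each. *Vegfa* and *Slc2a1* reached it in 17 of 19 and 17 of 19, and *Egln1* in 16 of 18 classes. A gene that passed the filter only through mouse 3 had to differ, so that counts over tested classes are a description of those classes.

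Because most members were higher in the same mouse, the start regions of the genes were searched for the core of the hypoxia response element, ACGTG or GCGTG on either strand, in the 250 bases before each RefSeq transcription start (GRCm38.p6). Of 32851 such windows 38.6% held a match. Of the members, 29 were matched, *Ero1l* under its RefSeq symbol *Ero1a*, and *Ndrg1* was not. Their 44 windows held a match in 34 cases, or 77.3%. At least 1 window held one in all 14 matched hypoxia response genes, *Car9* included, and in 13 of 15 enzymes, *Gpi1* and *Tpi1* being without, against 41.5% of all 27025 genes. Members with several windows had more chances of a match. Overlapping matches on both strands were each counted. Both motifs hold a CG pair, and the windows of all genes were not matched to those of the members for CG content. The hypoxia response genes were chosen as known targets of the factor that binds this motif, so the shares are a description, and a match in these letters is no evidence of binding.

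The windows of the 5 matched hypoxia response genes with the largest median ratio of mouse 3 over mouse 4 (2.06 to 2.65 on the log2 scale) are shown to let the motif be read in place. They run 5′ to 3′ in the direction of the gene and end at the base before its start, with matches in capitals. *Bnip3* holds 5 matches, *Ankrd37* 4, *Adm* and *Ddit4* 2 each and *Egln3* 1.
*Adm*, chr7:110627407-110627656, plus strand: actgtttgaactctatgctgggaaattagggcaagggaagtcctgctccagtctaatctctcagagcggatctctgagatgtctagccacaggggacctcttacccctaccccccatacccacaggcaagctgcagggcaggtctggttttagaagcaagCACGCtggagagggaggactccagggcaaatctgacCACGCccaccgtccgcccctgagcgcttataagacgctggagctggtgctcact
*Ddit4*, chr10:59951771-59952020, minus strand: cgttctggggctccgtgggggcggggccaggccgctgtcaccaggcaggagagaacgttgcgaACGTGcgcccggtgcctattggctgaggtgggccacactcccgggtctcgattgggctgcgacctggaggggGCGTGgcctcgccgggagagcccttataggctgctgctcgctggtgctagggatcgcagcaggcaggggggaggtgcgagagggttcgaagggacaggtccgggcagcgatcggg
*Bnip3*, chr7:138909507-138909756, minus strand: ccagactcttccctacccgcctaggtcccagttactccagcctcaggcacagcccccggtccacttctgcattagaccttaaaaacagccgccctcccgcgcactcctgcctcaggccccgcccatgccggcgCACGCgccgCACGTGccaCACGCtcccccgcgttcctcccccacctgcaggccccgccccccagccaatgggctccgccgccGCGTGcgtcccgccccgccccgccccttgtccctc
*Egln3*, chr12:54203875-54204124, minus strand: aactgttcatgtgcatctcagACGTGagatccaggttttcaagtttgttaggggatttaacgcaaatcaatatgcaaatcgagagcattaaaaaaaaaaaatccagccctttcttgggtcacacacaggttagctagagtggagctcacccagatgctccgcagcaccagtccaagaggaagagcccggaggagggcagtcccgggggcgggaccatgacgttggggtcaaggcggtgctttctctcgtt
*Ankrd37*, chr8:45999851-46000100, minus strand: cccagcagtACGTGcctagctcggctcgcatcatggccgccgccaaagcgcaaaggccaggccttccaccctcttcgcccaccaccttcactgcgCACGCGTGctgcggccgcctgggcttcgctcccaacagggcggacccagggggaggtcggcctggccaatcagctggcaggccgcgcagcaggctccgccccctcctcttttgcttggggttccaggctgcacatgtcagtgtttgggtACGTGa

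The higher level of mouse 3 was not limited to cells of the Six2-cre lineage. In the 6 classes of that lineage named by markers (NPC-, ErPT-, PT-, LOH-, DT- and podocyte-like), mouse 3 was at least 1.5-fold above each other mouse in 132 of 162 tested pairs, and in the 8 other named classes, CD-like included, in 161 of 201. Of all tested genes of a class, 3.08% (NPC-like) to 5.50% (LOH-like) met that rule in the former and 2.62% (mural-like) to 9.19% (CD-like) in the latter. The median ratio to the mean of the other mice was 3.07 and 3.16 for the hypoxia response genes, and 1.98 and 2.03 for the enzymes. Whether the ratios differ between these kinds of class was not tested. The class counts ranged from 5 of 15 in erythroid-like (3.01% of all tested genes) to 28 of 28 in UB-like cells (5.62%). PT-like cells gave 22 of 29 (3.87%), ErPT-like 25 of 28 (3.29%) and stroma-like 25 of 28 (4.02%). The median ratio of the hypoxia response genes was 2.26 in PT-like, 2.93 in ErPT-like, 4.05 in LOH-like, 3.24 in stroma-like and 5.55 in UB-like cells, against 0.984 to 1.002 for all tested genes of a class. CD-like cells gave 27 of 28, but between clusters 10 and 15, and there 9.19% of all tested genes met the same rule.

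Single cells were compared after each was thinned to 6800 UMIs, which no cell was below. Summed over the 15 hypoxia response genes, the median cell of mice 1 to 4 had 6, 6, 22 and 6 UMIs in LOH-like, 6, 6, 12 and 6 in PT-like and 5, 5, 15 and 5 in stroma-like cells. The middle 50% of mouse 3 cells spanned 15.5 to 30.5, 9 to 17 and 9 to 24.75 UMIs. In LOH-like cells 96.9% of the cells of mouse 3 lay above the median of mouse 4, and 76.3% above its 95th percentile. The share above that percentile was 52.9% in PT-like, 69.7% in stroma-like, 41.7% in immune-like and 97.5% in UB-like cells. It was 44.4% in mural-like and 16.7% in erythroid-like cells. Above the median of mouse 4 lay 71.7% of immune-like, 88.9% of mural-like and 60% of erythroid-like cells of mouse 3. In UMIs summed over erythroid-like cells, mouse 3 stood at a median of 1.72 times the other mice for the tested hypoxia response genes and 1.65 times for the enzymes. Single erythroid-like cells did not set mouse 3 apart, but their medians were only 1, 2, 2 and 1.5 UMIs in mice 1 to 4. There 48.5% and 62.5% of the cells of mice 1 and 2 lay above the median of mouse 4, and 21.2% and 37.5% above its 95th percentile. The 15 enzymes gave 44, 47, 85 and 44.5 UMIs in LOH-like and 38, 37, 57 and 40 UMIs in PT-like cells. Before thinning, the medians of the hypoxia response genes were 16, 14, 69 and 18 UMIs in LOH-like cells.

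**Figure D4:**
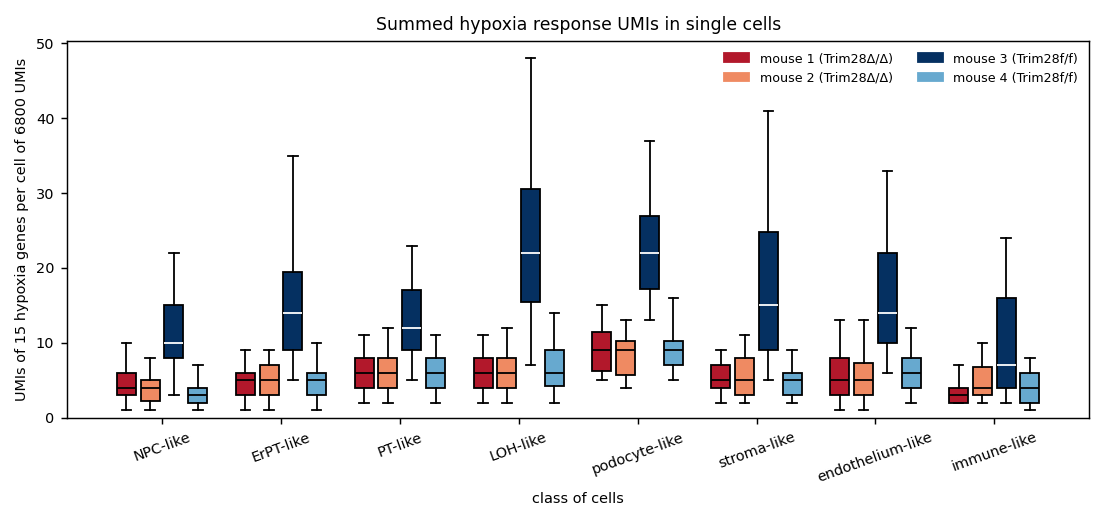
UMIs of the 15 hypoxia response genes per cell after thinning to 6800 UMIs, for 8 classes and 4 mice, where boxes span the quartiles with the median as a line and whiskers the 5th to 95th percentiles. In LOH-like cells the medians are 6, 6 and 6 UMIs in mice 1, 2 and 4 and 22 UMIs in mouse 3.

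Genotypes were compared with mice as replicates, and over the classes of cells no member passed the threshold of that test. With 2 mice against 2 (quasi-likelihood test of edgeR, p-values adjusted by Benjamini-Hochberg over all tested genes of a class), 0 of 498 pairs were called lower in *Trim28*Δ/Δ and 0 higher, where 0.114% and 0.18% of all pairs were called. DESeq2 called 0 of 564, where it called 0.0415% of all pairs lower. At an unadjusted p under 0.05 it gave 153 member pairs, each lower, against 1.48% of all pairs in either direction. The count depended on the expression filter, for without it edgeR called 252 of 564 pairs lower and 0 higher, against 0.645% of all pairs lower. The smallest adjusted p of a member was 0.106, for *Slc2a1* in DT-like cells, which had 76.0, 57.2, 299 and 112 CPM in mice 1 to 4 and a log2 change of -1.66 (SE 0.36). The estimates pointed down all the same, with 490 of 498 below 0 and a median of -0.81, against 51.0% below 0 and a median of -0.01 over all pairs. At an unadjusted p under 0.05, 250 pairs were lower and 0 higher, where all pairs gave 3.49% and 3.17%.

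These estimates depended on mouse 3. In PT-like cells the log2 change (*Trim28*Δ/Δ over *Trim28*f/f) was -0.96 (SE 0.44, adjusted p = 0.506) for *Ndrg1*, -0.69 (SE 0.32, adjusted p = 0.51) for *Bnip3* and -0.48 (SE 0.18, adjusted p = 0.411) for *Ldha*. In stroma-like cells it was -1.04 (SE 0.41, adjusted p = 0.999) for *Higd1a* and -0.99 (SE 0.47, adjusted p = 0.999) for *P4ha1*. In podocyte-like cells *Vegfa* had 592 ± 159 CPM in *Trim28*Δ/Δ and 882 ± 256 CPM in *Trim28*f/f mice (SD, n = 2), a log2 change of -0.57 (SE 0.28, adjusted p = 0.738). Both *Trim28*f/f mice lay above both *Trim28*Δ/Δ mice in 204 of the 498 pairs, and below both in 1, where all pairs gave 18.1% and 17.8%. Mouse 4, taken alone, was above both *Trim28*Δ/Δ mice in 205 pairs, between them in 174 and below both in 119, while over all pairs it was above both in 35.0% and below both in 34.1%.

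Leaving out mouse 3 brought the median log2 change of the members in a class to between -0.17 and 0.22, whereas leaving out mouse 4 brought it to between -2.01 and -0.88. With all 4 mice it lay between -1.32 and -0.32. Without mouse 4, 388 of 528 pairs were called lower in *Trim28*Δ/Δ, where 5.85% of all pairs were, and the test then set mouse 3 alone against mice 1 and 2. Without mouse 3, 6 of 501 pairs were called lower and 1 higher, where all pairs gave 0.857% and 1.26%. Without mouse 1, 10 of 532 were called lower, against 0.0535% of all pairs, and without mouse 2, 7 of 531, against 0.041%. Clustering with all variable genes gave 3 of 470 (0.13% of all pairs) and clustering on log-normalized values 1 of 499 (0.111%). Where a mouse is left out, the lone mouse is assumed to vary as the pair does. Without mouse 3, the share of member pairs called lower was near that of all pairs. The share called higher lay below that of all pairs, so the values of the genes named here are a description. The calls lower were *Pkm* in PT-like and cluster 12 (*Cryab*, *Corin*) cells, *Eno1* and *Slc2a1* in LOH-like cells and *Ldha* and *Pfkl* in NPC-like cells. Their log2 changes were -0.33 (*Ldha*) to -0.58 (*Pkm* in cluster 12). In mice 1 to 4, *Pkm* had 75.1, 87.1, 138 and 105 CPM in PT-like cells, *Eno1* 345, 365, 896 and 494 CPM in LOH-like cells and *Pfkl* 51.8, 58.7, 139 and 82.0 CPM in NPC-like cells. All member calls without mouse 1 or mouse 2 fell in clusters 12 and 16 (*Pdgfrb*, *Ebf1*), which the markers did not name. Among these calls, in cluster 12 *Ankrd37* had 36.0, 29.4, 191 and 37.8 CPM and *Egln3* 4.91, 4.90, 54.8 and 9.06 CPM. Mouse 3 was the highest for both genes. The call higher was *Ddit4* in NPC-like cells (1.09, adjusted p = 0.0048), which had 31.5, 24.1, 155 and 13.0 CPM in mice 1 to 4. NPC-like cells joined clusters 8 and 9, and mouse 4 gave 199 of the 312 cells of the latter.

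**Figure D5:**
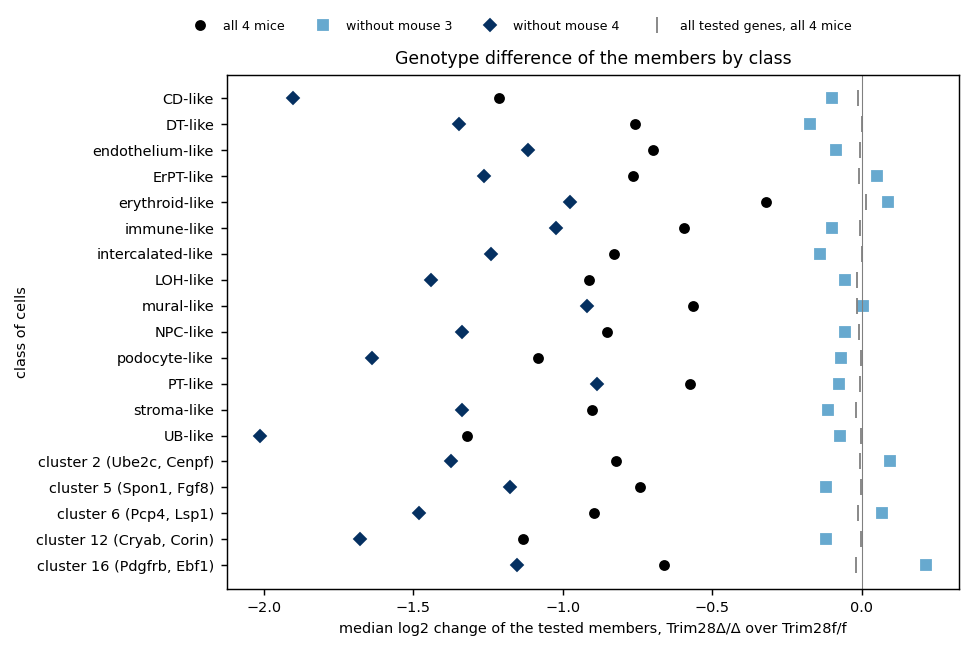
Median log2 change (*Trim28*Δ/Δ over *Trim28*f/f, x axis) of the tested members in each of 19 classes (y axis), for all 4 mice (black), without mouse 3 (light squares) and without mouse 4 (dark diamonds), with all tested genes as grey ticks. Without mouse 3 the medians lie between -0.17 and 0.22.

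Proximal tubule derives from the cells that lost *Trim28* and stroma does not, so the genotype difference was compared between PT-like and stroma-like cells in 1 fit with the mouse as a block. Of 29 members tested, edgeR called 0, where it called 0.271% of all genes, and DESeq2 called 0 as well, where it called 0.0747%. At an unadjusted p under 0.05 edgeR gave 6 members, where it gave 6.55% of all genes, and DESeq2 0, where it gave 1.04%. With no expression filter edgeR called 1 member, *Bnip3*, against 0.553% of all genes. With the filter the difference of log2 changes was 0.82 for *Bnip3* (SE 0.32, adjusted p = 0.638), 0.71 for *Higd1a* (SE 0.30, adjusted p = 0.691) and 0.26 for *Ldha* (SE 0.16, adjusted p = 0.874). Values above 0 mean that the *Trim28*Δ/Δ level was less far below the *Trim28*f/f level in PT-like than in stroma-like cells. Without mouse 4 the difference was 1.35 for *Bnip3* and 1.31 for *Higd1a*, with mouse 3 as the only *Trim28*f/f mouse. Without mouse 3 edgeR called 0 of 29 members, against 0.627% of all genes, and 1 member was at an unadjusted p under 0.05, against 7.52%.

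Genes of the same pathways outside the set moved unequally, and the examples given here were chosen after their values were seen. Their medians run over the classes in which the gene passed the filter, whereas those of the members above run over all 19 classes. Of 34 other hypoxia response genes, mouse 3 was at least 1.5-fold above each other mouse in 233 of 431 tested pairs (54.1%), where all pairs of gene and class gave 4.46%. The share for each further list is read against that value. Among the 34 were *Fam162a*, *Mxi1*, *Bhlhe40* and *Stc2*, at medians of 2.48, 2.90, 4.07 and 3.99 times the other mice, while *Lox* (a collagen cross-linking enzyme) stood at 0.942 and *Wsb1* at 1.21 times. Of 22 other glycolysis genes the rule held in 47 of 205 tested pairs (22.9%). The lactate exporter *Slc16a3* and the regulatory enzyme *Pfkfb3* were at 6.66 and 5.74 times, and *Eno2* at 2.75 times. *Ldhb*, the other lactate dehydrogenase subunit, and the mitochondrial pyruvate carriers *Mpc1* and *Mpc2* were at 1.02, 0.900 and 0.955 times.

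The 7 genes of gluconeogenesis met the rule in 11 of 84 tested pairs (13.1%) and the 11 hexose transporters in 10 of 48 tested pairs (20.8%), with *Slc2a3* at 4.09 and *Slc2a2* at 0.973 times. The 9 genes of oxygen sensing met it in 20 of 134 tested pairs (14.9%). *Hif1a* stood at 1.17, *Epas1* (HIF2 alpha) at 0.969, *Vhl* at 1.37 and *Egln2* at 0.766 times, whereas *Hif3a*, itself a known HIF target, stood at 2.49 times. Stress genes were examined beside them. The 13 genes of the unfolded protein and integrated stress responses met the rule in 46 of 166 tested pairs (27.7%), with *Ddit3* and *Ppp1r15a* at 3.19 and 2.29 and the chaperone *Hspa5* at 0.761 times. The 13 immediate early and heat shock genes met it in 50 of 211 tested pairs (23.7%). Of these genes *Ier3* stood at 4.25, *Fos* at 1.55, *Ier2* at 0.763 and *Hsph1* at 0.529 times. Some pairs of both lists went the other way, with mouse 3 at least 1.5-fold below each other mouse. The share of such pairs over all genes is not given here, so they are not read as a trait of the lists. The part of these responses and of the lower mitochondrial share of mouse 3 in the raised members was not tested.

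In the genotype test, edgeR called 4 of 1279 tested pairs of these further lists, or 0.313%, in 4 different genes. Over all pairs it called 0.295%, so the share in the lists was near that of all genes, and the values of the 4 genes are a description. *Fbp2*, a fructose-bisphosphatase of gluconeogenesis, was higher in *Trim28*Δ/Δ PT-like cells, with 333, 308, 153 and 156 CPM in mice 1 to 4 (log2 change 1.05, SE 0.11, adjusted p = 0.0117). Here mice 3 and 4 lay close together, unlike in the members. *Hspb1*, a small heat shock protein, was higher in *Trim28*Δ/Δ LOH-like cells, with 145, 86.7, 25.9 and 26.7 CPM in mice 1 to 4 (log2 change 2.14, SE 0.27, adjusted p = 0.0458), and *Wsb1*, a ubiquitin ligase subunit, in cluster 5 (*Spon1*, *Fgf8*) cells, with 217, 255, 148 and 101 CPM in mice 1 to 4 (log2 change 0.91, SE 0.18, adjusted p = 0.0353). *Pfkfb3* was lower in *Trim28*Δ/Δ DT-like cells, with 8.03, 5.04, 62.2 and 24.0 CPM in mice 1 to 4 (log2 change -2.78, SE 0.48, adjusted p = 0.0277), where mouse 3 exceeded mouse 4. Without mouse 1 the adjusted p rose to 0.100 for *Fbp2* (log2 change 0.997), 0.155 for *Wsb1* (1.03), 0.0693 for *Hspb1* (1.72) and 0.259 for *Pfkfb3* (-3.16), so that no call was left. Without mouse 2 it was 0.0512 (1.11), 0.843 (0.80), 0.00787 (2.48) and 0.258 (-2.48), and without mouse 3 *Pfkfb3* came to 0.0993 (-1.84).

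Outside all lists, the 8 genes whose levels followed the hypoxia response members most closely were *Rlf*, *Khnyn*, *Bsg*, *Alkbh5*, *Mgarp*, *H1f0*, *Zfp395* and *Dlc1*. Likeness was the Pearson correlation of log2(CPM + 10), centred within each class, with the mean of the members, over 76 sums of class and mouse that share 4 mice and 1 pool, and it lay between 0.90 and 0.91. Mouse 3 was at a median over all classes of 2.34 times the other mice for *Rlf* and 3.31 times for *Dlc1*. *Bsg*, the partner protein of lactate transporters, followed the order at a ratio of only 1.23. For each member the same measure was taken against the mean of the other hypoxia response genes. It was 0.98 for *Bnip3*, 0.97 for *P4ha1* and 0.96 for *Slc2a1*, between 0.75 and 0.95 for the enzymes other than *Pfkm* (0.36), and 0.28 for *Car9*.

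Some members cannot be counted without doubt. *Aldoa* has 2 rows in the features, of which the second (ENSMUSG00000114515) had 14 UMIs and was not used. *Gapdh*, *Ldha*, *Pgk1*, *Tpi1*, *Pgam1*, *Eno1* and *Aldoa* have pseudogene copies of similar sequence, and how reads that fit both were divided is not known here. *Eno1b*, a near copy of *Eno1*, had 812 UMIs, against 54841 of *Eno1*.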

How the data were processed

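Kidney cells were dissociated with a cold-active protease, tagged per mouse and run on a single 10x 3′ lane (v3.1 chemistry). The authors made the deposited counts with Cell Ranger (version 6.0.0 in the submitters' processing notes), which collapses UMIs, against a build their notes list as GRCm38 or mm10. The matrix is unfiltered, with 3921239 barcodes, 32285 genes and 12 tags, and held 550538685 gene UMIs. Cells were called here by an order-of-magnitude rule at 24000 expected cells (6890 UMIs or more, 21386 barcodes). Cells with under 200 genes or over 10% mitochondrial UMIs were removed as in the study's methods, which left 19273. HTODemux assigned 6867 to the 4 mice and set aside 6684 doublets, 1435 negatives and the cells of tags without a label. Doublets within 1 mouse were not sought.

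Cells were clustered with Seurat 5.3.0 on SCTransform residuals (3000 variable genes without the members and the other fixed lists, 30 principal components, Louvain resolution 0.8). UMIs were summed per class and mouse. Classes of 10 or more cells per mouse were tested by edgeR 4.0.16 (filterByExpr, TMM, glmQLFit and glmQLFTest, Benjamini-Hochberg threshold 0.05), with DESeq2 1.42.0 as an alternative. The difference between PT-like and stroma-like cells used the mouse as a block. Recovery was tried in simulated sums of NPC-like (10648 genes), PT-like (12012) and stroma-like cells (8569). In that order the test recovered 96%, 100% and 88% of 4-fold and 57%, 95% and 20% of 2-fold changes. The simulated sums took the trended dispersion over genes, and changes were set only in genes above a minimum CPM. A gap such as that between mice 3 and 4 in the members was not simulated, so these shares do not apply to the members. P-values rest on the spread between 2 mice a genotype, which edgeR moderates over all tested genes of a class. Free RNA was estimated from 353040 barcodes of 10 to 100 UMIs.

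The members, the lists and the rule for named genes were chosen with earlier results of these data known, the difference of mouse 3 among them. All members are named. Values in every mouse are given for the 5 enzymes and 8 hypoxia response genes of highest mean CPM. No member was called in the genotype test at its main settings. Genes of the lists are named where called, and further values were chosen after they were seen. Alternatives changed the tag assignment, the UMI minimum, the clustering, the filter, the scaling, the free RNA and the mice included.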

Additional observations from a re-analysis of the deposited data

How the results depend on the processing

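The ratio of mouse 3 over mouse 4 moved by less than the spread over classes under every alternative tried, between 0.93 and 1.12 (log2) for the enzymes and between 1.52 and 1.88 for the hypoxia response genes. Members called lower in *Trim28*Δ/Δ numbered 0, but 252 of 564 with no expression filter (all pairs 0.645%), 3 of 470 tested with all variable genes in the clustering (all pairs 0.13%), 1 of 499 with log-normalized values (all pairs 0.111%), and 6 of 501 without mouse 3 (all pairs 0.857%) to 388 of 528 without mouse 4 (all pairs 5.85%) when 1 mouse was left out. Without mouse 1 the count was 10 of 532 (all pairs 0.0535%) and without mouse 2 it was 7 of 531 (0.041%). Members called higher numbered 0, and 0 to 1 when a mouse was left out. Members whose genotype difference differed between PT-like and stroma-like cells numbered 0, with 1 without the filter (*Bnip3*, all genes 0.553%). Without mouse 4 that difference was 1.35 for *Bnip3* and 1.31 for *Higd1a*. The cause of these changes was not tested. The other alternatives gave the same counts. Without mouse 3 the median log2 change over classes was below 0 for 22 of 29 members and lay between -0.33 and 0.17.

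*Fbp2* in PT-like cells lost its call without mouse 1 (adjusted p = 0.100) and without mouse 2 (0.0512, edgeR). *Wsb1* lost it without either as well, *Hspb1* without mouse 1, with the 60% tag share and with free RNA subtracted, and *Pfkfb3* under 6 alternatives, among them without mouse 3. Under the alternatives that lost the call, the log2 change lay between 0.997 and 1.11 for *Fbp2*, 0.798 and 1.03 for *Wsb1*, 1.45 and 2.35 for *Hspb1* and -3.16 and -1.84 for *Pfkfb3*. No paired analysis was possible because the replicate numbers only name mice of different genotypes and each group has 1 mouse per number from separate embryos, with no label that links them. Depth limits *Car9* most, which passed the expression filter in no class and was tested under DESeq2 and without the filter only, and classes of few cells, such as intercalated-like with 12 cells of mouse 1, give sums of few UMIs.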
